A study of Mus musculus with 11 samples.

Results

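The DNA replication and S-phase genes described here are 41 mouse genes that were taken by symbol from the gene tables of a study of β-actin loss in fibroblasts. They hold 6 genes of origin licensing, the 6 subunits of the MCM2-7 helicase, 5 genes of helicase activation, 6 of the polymerases and primase, 6 of the sliding clamp and its loader, the 3 subunits of RPA, 2 of Okazaki fragment maturation, 4 of nucleotide supply and 3 E2F transcription factors. All 41 were found among the 46469 symbols of the tables, and all 41 passed the filter on low values, so none was left out of the tests. Total RNA was sequenced as stranded mRNA libraries in 3 genotypes: 3 libraries with no intact copy of the β-actin gene (KO, Actb -/-, numbered 1, 3 and 4), 4 with 1 intact copy (Het, Actb +/-) and 4 with both copies (WT, Actb +/+). All were embryonic fibroblasts of the BALB/c strain from embryos of 10.5 days, grown in high-glucose DMEM with 10% fetal bovine serum, penicillin and streptomycin, with RNA taken at 70% confluence. How the null allele was made, and whether each library came from its own embryo or culture, is not given in the labels. The p-values therefore measure the spread between these libraries, which may be technical.

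A cell copies its DNA in S phase. In G1 the origin recognition complex (ORC), Cdc6 and Cdt1 load the ring-shaped MCM2-7 helicase onto origins as an inactive complex, a step called licensing, which geminin (Gmnn) blocks outside G1 by binding Cdt1. At the start of S phase Mcm10, Cdc45 and the GINS complex turn the loaded rings into working helicases, DNA polymerase alpha with its primase lays down primers, and the leading and lagging strands are extended by polymerases epsilon and delta on the clamp PCNA, which the RFC complex loads. Many of these genes are transcribed under E2F factors as cells pass from G1 to S, and fibroblasts in culture express them while they cycle.

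Levels are FPKM, fragments per transcript length and sequenced fragments, scaled between libraries, and means are given ± SD over 3 KO, 4 Het and 4 WT libraries. The targeted gene followed the labels: Actb stood at 44.85, 44.9 and 47.1 FPKM in KO, 869, 829, 815 and 822.5 in Het and 1074, 1427, 1247 and 1525 in WT libraries. The deposited tables hold no read counts. A relative depth, read from the steps of low values, lay between 65.5% and 101% of WT 1 in KO, 79.55% and 118% in Het and 60.7% and 125% in WT libraries, with KO 1 and WT 3 the shallowest. Between 13885 and 14202 symbols per library reached 1 FPKM. The authors' interval around a member's FPKM had a median half-width over the libraries of 3.06% of the estimate for Rrm1, the tightest, and 20.6% for E2f2, the widest. Of markers of the labelled cell type, all 8 fibroblast genes passed the filter, with sums of 3560 to 4210 FPKM in KO, 2300 to 2620 in Het and 1460 to 1910 in WT libraries. Thy1 and Pdgfra were low, at means of 2.202 and 0.9596 FPKM in KO, 0.6645 and 4.315 in Het and 0.02465 and 0.2105 in WT libraries. Thy1 was at 0 in WT 1, WT 2 and WT 3 and at 0.0986 FPKM in WT 4. Not every marker followed the order of the sums. Col1a2, like Pdgfra, was highest in Het, at means of 11.5 FPKM in KO, 192.5 in Het and 6.83 in WT libraries. Vim was lowest in Het, at 1502, 847 and 879 FPKM. Most markers of other cell types did not pass the filter. Tubb3 was the highest of those that did, at means of 13.6 FPKM in KO, 24.5 in Het and 10.8 in WT libraries. These lay above the means of Thy1 and Pdgfra in every genotype and above that of Col1a2 in KO and WT. Endothelial markers (0 of 4 passed the filter) summed to 0.455 to 0.532 FPKM in KO, 0.115 to 0.289 in Het and 0.132 to 0.266 in WT libraries. Those of macrophages and blood (1 of 6 passed, with Ptprc, Emr1 and Hbb-bs at 0 in all) summed to 2.1 to 4.57 FPKM in KO, 1.19 to 2.13 in Het and 1.34 to 2.86 in WT libraries, and those of muscle (1 of 3, with Myod1 and Myog at 0 in all) to 0.892 to 1.41 FPKM in KO, 0.943 to 1.52 in Het and 0.385 to 0.482 in WT libraries. Epithelial markers (1 of 4) summed to 0.753 to 0.831 FPKM in KO, 5.34 to 9.02 in Het and 1.92 to 2.64 in WT libraries, and neural ones (1 of 4) to 12.8 to 14.1 FPKM in KO, 21.5 to 28.8 in Het and 6.99 to 16.5 in WT libraries, nearly all from Tubb3. Between genotypes, ranges of the sums did not overlap for the fibroblast and epithelial lists in any pair, for endothelial markers in KO against Het or WT, for muscle in KO or Het against WT, and for neural markers in Het against KO or WT. Their part in the differences of the replication genes was not tested. The loci of Mcm2, Mcm7, Orc1, Cdc45, Gins1, Gins2, Rfc4, Pola1, Pold1, Prim2, Lig1, Tk1, E2f1 and E2f8 overlap those of other genes in the tables, and whether the authors' counting used strand is not given in the sources used here, so reads in the shared stretches are of uncertain origin.

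E2F factors bind short GC-rich words that start with a run of T, and promoters of some of the changed members are shown because this word is the textbook link between the E2F genes of the set and the others. At least 1 promoter of 300 bases, 250 before to 50 after the annotated start, was available from RefSeq (GRCm38.p6) for 34 of the 41 members. E2f2, Fen1, Lig1, Mcm7 and Orc2 had more than 1. A gene, member or not, was counted as holding a word if any of its promoters held it. For E2f2, Lig1 and Mcm7 not every promoter held an E2F word. None was available for Gmnn, Gins1, Prim2, Mcm4, Gins2, Pole and Rfc2, so these were not searched. The words searched, on both strands, were TTTCCCGC, TTTCGCGC, TTTGCCGC and TTTGGCGC. At least 1 of them was present in 13 of the 34 members (38.2%), against 2.60% of 27025 genes with a promoter in the table. The CCAAT box, CCAAT on either strand, was present in 23 of 34 (67.6%) against 41.06% of genes, and the CHR element of late cell cycle genes, TTTGAA on either strand, in 6 of 34 (17.6%) against 20.23%. The words of the 3 searches are not nested in each other, and a match is a description of the letters, not of a bound site.

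The promoters below are those of the 3 members that fell most in KO against WT among those with an E2F word (E2f2, Cdc6, Gins3), of the member that fell most among those without one (Prim1), and of the 2 that rose (Orc1, Rpa3). The start is that of the RefSeq promoter table, which equals the start of the gene's locus in the deposited tables for Gins3, Prim1 and Rpa3, lies before it for E2f2, and lies 449 bases after it for Cdc6 and 3955 bases after it for Orc1. Each is printed 5′ to 3′ along the strand of its gene, in lower case with the E2F word in capitals. Counted from that start, the word begins 39 bases after it in E2f2 and reads along the gene, and its match lies on the opposite strand, beginning 138 bases before the start in Cdc6, 41 before it in Gins3 and 27 before it in Orc1. Prim1 and Rpa3 have none in this window. E2f2 has a further promoter at chr4:136180532-136180831 that holds no E2F word. The one printed was picked because it holds the word.
E2f2 promoter, chr4:136172024-136172323, plus strand: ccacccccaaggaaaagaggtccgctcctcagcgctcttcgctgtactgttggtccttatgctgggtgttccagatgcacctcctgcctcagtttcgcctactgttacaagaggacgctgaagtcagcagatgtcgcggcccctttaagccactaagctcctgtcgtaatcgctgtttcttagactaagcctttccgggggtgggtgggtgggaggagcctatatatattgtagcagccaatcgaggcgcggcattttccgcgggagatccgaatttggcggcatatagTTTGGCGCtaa
Cdc6 promoter, chr11:98907901-98908200, plus strand: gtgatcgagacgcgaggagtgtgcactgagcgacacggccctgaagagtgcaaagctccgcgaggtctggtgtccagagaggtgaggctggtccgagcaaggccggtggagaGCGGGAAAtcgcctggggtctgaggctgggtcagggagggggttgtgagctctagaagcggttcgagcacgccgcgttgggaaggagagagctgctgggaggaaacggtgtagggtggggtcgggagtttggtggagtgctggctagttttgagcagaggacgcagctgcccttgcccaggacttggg
Gins3 promoter, chr8:95633309-95633608, plus strand: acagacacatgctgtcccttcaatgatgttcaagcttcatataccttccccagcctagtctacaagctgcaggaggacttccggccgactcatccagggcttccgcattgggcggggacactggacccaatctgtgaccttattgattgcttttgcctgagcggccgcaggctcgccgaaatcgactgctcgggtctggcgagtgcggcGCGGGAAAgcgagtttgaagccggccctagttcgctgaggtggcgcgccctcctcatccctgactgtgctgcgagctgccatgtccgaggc
Prim1 promoter, chr10:128014965-128015264, plus strand: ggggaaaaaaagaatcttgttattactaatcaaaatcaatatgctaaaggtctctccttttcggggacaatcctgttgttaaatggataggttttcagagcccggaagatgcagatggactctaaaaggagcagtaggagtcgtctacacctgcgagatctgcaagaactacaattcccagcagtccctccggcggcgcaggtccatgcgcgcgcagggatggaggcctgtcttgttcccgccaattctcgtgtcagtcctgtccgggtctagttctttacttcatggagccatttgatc
Orc1 promoter, chr4:108579204-108579503, plus strand: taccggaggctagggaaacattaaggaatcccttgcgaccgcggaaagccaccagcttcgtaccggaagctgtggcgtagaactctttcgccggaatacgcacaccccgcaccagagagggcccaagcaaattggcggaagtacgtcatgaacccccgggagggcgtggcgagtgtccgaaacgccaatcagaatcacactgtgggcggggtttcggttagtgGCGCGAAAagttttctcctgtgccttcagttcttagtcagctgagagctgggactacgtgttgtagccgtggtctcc
Rpa3 promoter, chr6:8259092-8259391, minus strand: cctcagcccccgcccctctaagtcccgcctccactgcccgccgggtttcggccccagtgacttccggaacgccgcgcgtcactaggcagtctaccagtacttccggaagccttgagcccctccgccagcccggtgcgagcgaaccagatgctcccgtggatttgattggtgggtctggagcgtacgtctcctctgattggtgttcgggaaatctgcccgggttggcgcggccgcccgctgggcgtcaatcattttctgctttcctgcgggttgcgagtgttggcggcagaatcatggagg

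By the direction of change in KO against WT, an E2F word was present in 4 of the 10 members with a promoter that fell, in 1 of the 2 that rose, and in 8 of the 22 that did neither.

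More replication genes fell than rose in KO against WT fibroblasts. In that comparison 15 of the 41 members passed a limma adjusted p of 0.05, against 47.1% of all 14937 genes tested: 13 of the 41 members fell (31.7%) and 2 rose (4.88%), against 23.7% of all genes that fell and 23.4% that rose. The licensing inhibitor Gmnn, the GINS subunit Gins1 and both primase genes Prim2 and Prim1 fell most, while Orc1 and Rpa3 rose. The median difference over the 41 members was -0.13 on the log2(FPKM + 1) scale, against 0.010 over all genes, and it was -0.23 without scaling between libraries, against -0.078 over all genes, and -0.084 with a GC trend removed from each library, against 0.0043 over all genes. Differences throughout are on this scale, which understates differences of low genes, and single members lay between -0.75 (Gmnn) and 0.59 (Pold1, which did not pass). Summed over the members, FPKM came to 2357 to 2385 in KO, 2454 to 2520 in Het and 2512 to 2581 in WT libraries, so the KO libraries lay below all others while Het and WT libraries overlapped. Of the 41 members, 28 or 29 lay below the WT mean in each KO library, 23 to 26 in each Het library and 15 to 25 in each WT library, the 25 in WT 4. The same count over all genes is not given here, so these counts describe the members only. In bulk RNA, fewer cells in S phase and less RNA of these genes per cell cannot be told apart. When WT 4 was left out, 5 members rose and 18 fell in KO against WT. In that fit 7907 of 14838 genes were called in all, against 7035 of 14937 in the main fit. The count that fell was 20 when the values were used without scaling between libraries, where 7401 of 14951 genes were called. Without scaling 37.1% of all calls were higher against 49.6% with scaling.

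**Figure D1:**
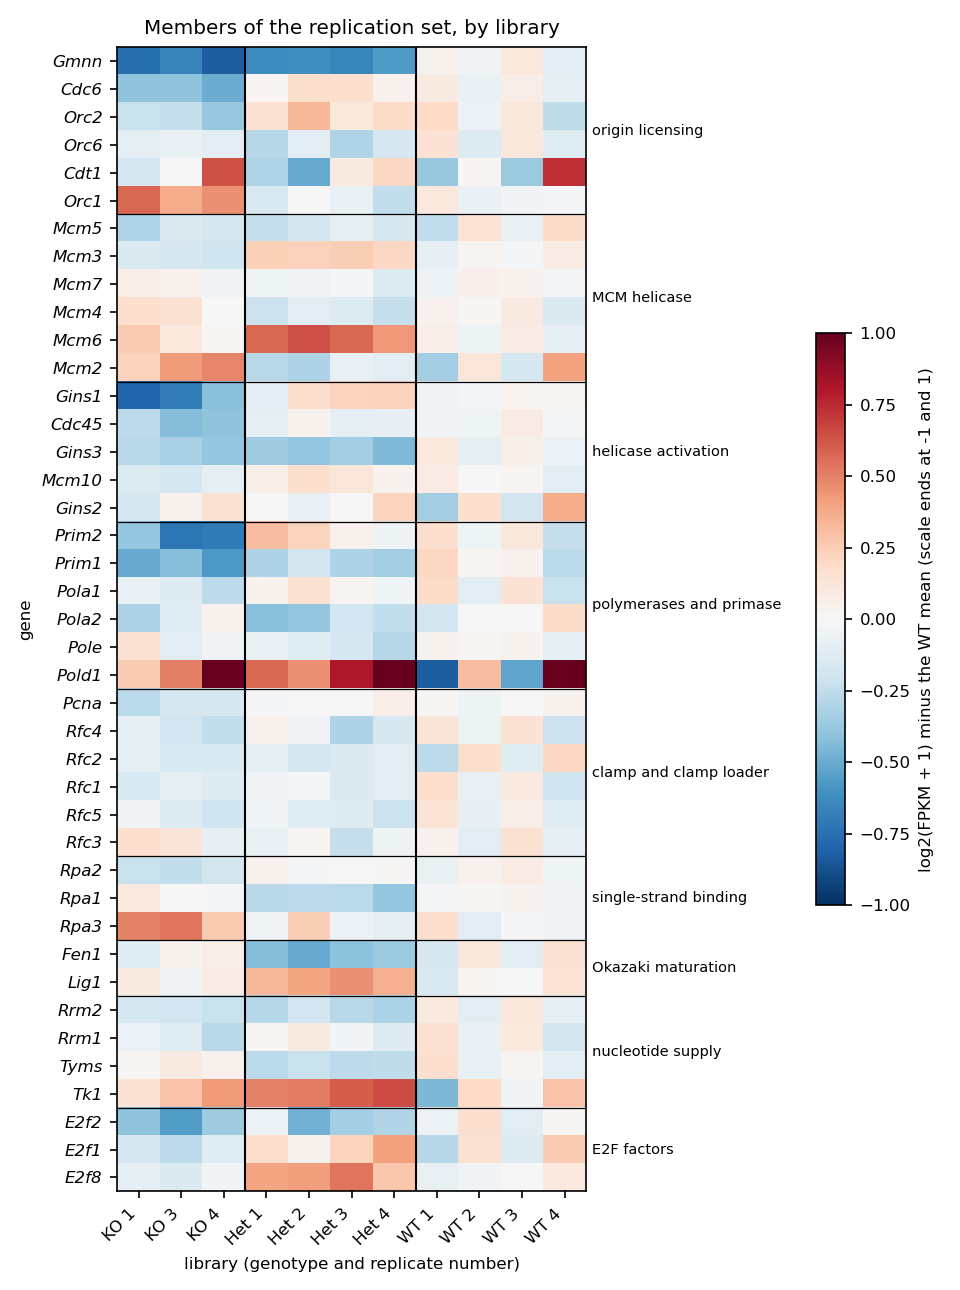
Level of each of the 41 members (rows of the map, grouped by role) in each library (columns, KO then Het then WT) as log2(FPKM + 1) minus the WT mean, with red above and blue below 0. Gmnn was below the WT mean in all 7 KO and Het libraries, Mcm6 and E2f8 were high in the 4 Het libraries, and Pold1 and Cdt1 varied widely within the WT group.

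In Het against WT 15 members passed, against 43.8% of all genes. Of these 10 fell (24.4% of the 41) and 5 rose (12.2%), against 22.1% and 21.7% of all genes, so the share that fell was near the background. The 5 that rose were Tk1, Mcm6, E2f8, Lig1 and Mcm3, and none of them rose in KO against WT. In KO against Het 20 members passed, against 44.2% of all genes. There 13 fell (31.7%) and 7 rose (17.1%), against 22.2% and 22.0% of all genes. KO against WT and Het against WT share the WT libraries, so their values are given side by side. Of the groups' values, 12 members in KO lay wholly below WT and 2 wholly above it (23.6% and 22.9% of all genes), 7 in Het lay wholly below WT and 5 wholly above it (20.0% and 19.5%), and 17 in KO lay wholly below Het and 8 wholly above it (26.7% and 27.3%).

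**Figure D2:**
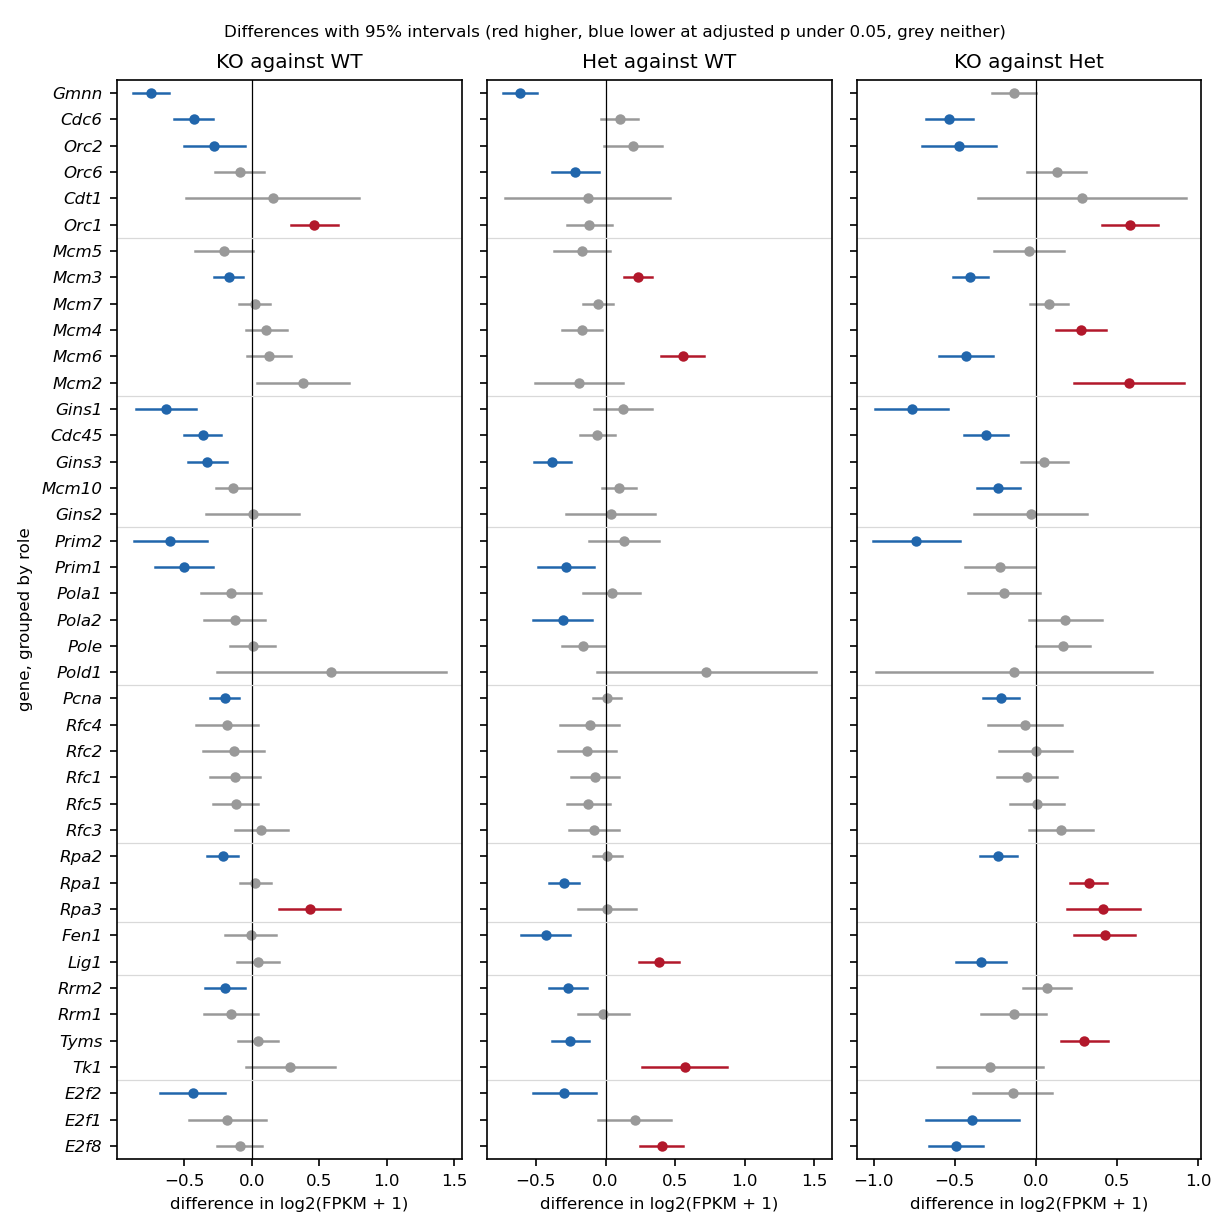
Difference in log2(FPKM + 1) with its 95% interval for each of the 41 members, in KO against WT, Het against WT and KO against Het, with genes that rose in red, genes that fell in blue and the rest in grey. In KO against WT 13 members fell and 2 rose, and the widest intervals are those of Pold1 and Cdt1.

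Among the licensing genes, Gmnn (geminin, chr13:24751845-24761937) had 59.9, 63.5 and 57.1 FPKM in KO, 65.4, 66.2, 64.3 and 68.3 in Het and 104, 99.1, 109 and 94.6 in WT libraries. The KO and Het libraries all lay below the WT libraries, at 59.1% of the WT mean in KO and 64.9% in Het. It fell by 0.75 ± 0.061 (SE, limma adjusted p = 2.7e-06) on the log2 scale in KO against WT and by 0.62 ± 0.056 (SE, limma adjusted p = 8.98e-06) in Het against WT. Between KO and Het its difference was -0.13 ± 0.061 (SE, limma adjusted p = 0.0992), which did not pass the threshold. Cdc6, the ATPase that joins ORC to load the helicase (chr11:98907702-98923942), had 28.95, 29.0 and 27.1 FPKM in KO, 39.1, 43.8, 43.2 and 39.85 in Het and 41.2, 36.7, 40.3 and 36.3 in WT libraries. Here KO alone was low, with no overlap with either other genotype: Cdc6 fell by 0.43 ± 0.066 (SE, limma adjusted p = 0.000307) in KO against WT and by 0.53 ± 0.066 (SE, limma adjusted p = 7.34e-05) in KO against Het, while in Het against WT the difference was 0.10 ± 0.061 (SE, limma adjusted p = 0.21).

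Orc1, the largest ORC subunit (chr4:108575499-108616048), moved the other way, with 15.9, 13.65 and 14.5 FPKM in KO, 9.22, 10.4, 9.79 and 8.57 in Het and 11.2, 9.86, 10.1 and 10.2 in WT libraries. All KO libraries were above all others. Orc1 rose by 0.46 ± 0.079 (SE, limma adjusted p = 0.000634) in KO against WT and by 0.58 ± 0.079 (SE, limma adjusted p = 0.000143) in KO against Het. Its locus overlaps that of Prpf38a, a splicing factor gene, by 3838 bases. Prpf38a averaged 43.0 FPKM in KO, 38.8 in Het and 60.3 in WT libraries. Orc2, another ORC subunit, had 26.0 to 29.1 FPKM in KO, 36.7 to 43.2 in Het and 28.5 to 39.2 in WT libraries. It fell by 0.28 ± 0.10 (SE, limma adjusted p = 0.0454) in KO against WT, a call near the threshold that was lost under 14 of 21 alternatives, and by 0.47 ± 0.10 (SE, limma adjusted p = 0.00317) in KO against Het. Orc6 fell in Het against WT by 0.22 ± 0.076 (SE, limma adjusted p = 0.0375), a call lost under 12 of 21 alternatives. Cdt1, the loading factor that geminin binds, passed no comparison: it had 20.2 to 36.1 FPKM in KO, 15.8 to 26.5 in Het and 17.4 to 38.6 in WT libraries, and the interval of KO against WT was -0.49 to 0.80.

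**Figure D3:**
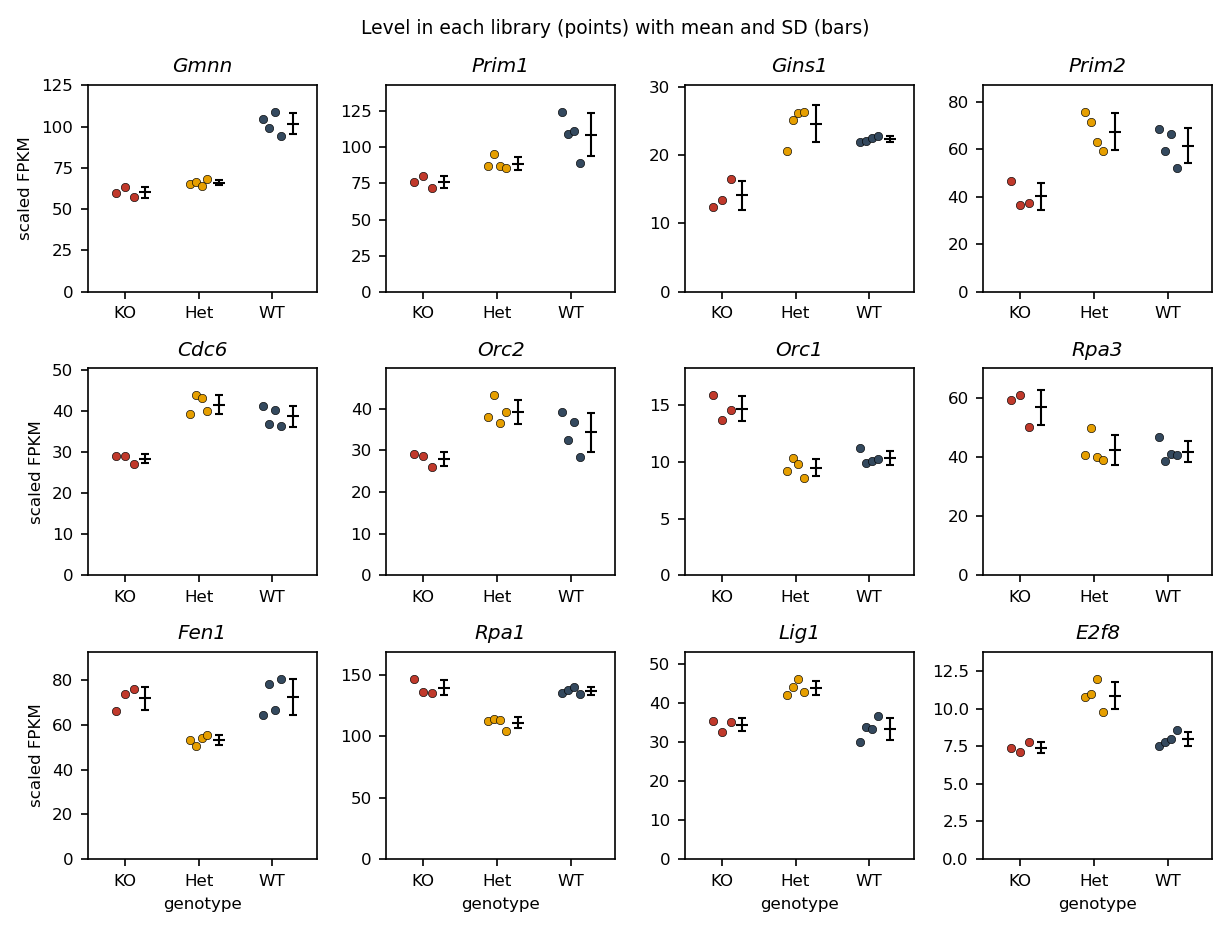
Scaled FPKM of 12 members in each library (points, KO then Het then WT) with the mean and SD of each genotype (bars). Gmnn was low in KO and Het, and Gins1, Prim2, Prim1 and Cdc6 lay below both other genotypes in KO, though Prim1 did not pass in KO against Het. Orc2 lay below Het in KO but overlapped WT. Orc1 and Rpa3 were high in KO, and Fen1, Rpa1, Lig1 and E2f8 departed in Het.

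The 6 subunits of the MCM2-7 ring, which act in equal numbers in the helicase, did not move together: 1 fell and none rose in KO against WT, 2 rose and none fell in Het against WT, and 2 rose and 2 fell in KO against Het. In the same comparisons 23.7%, 22.1% and 22.2% of all genes fell and 23.4%, 21.7% and 22.0% rose. Mcm3 (chr1:20803014-20820213) had 106, 104 and 102 FPKM in KO, 139, 138, 139 and 135 in Het and 111, 119.5, 116 and 123 in WT libraries. Its 3 genotypes did not overlap, with Het highest and KO lowest: it fell by 0.17 ± 0.049 (SE, limma adjusted p = 0.0138) in KO against WT, a call lost under 3 of 21 alternatives, and rose by 0.23 ± 0.045 (SE, limma adjusted p = 0.00176) in Het against WT. Mcm6 (chr1:128331591-128359656) had 121, 109 and 103 FPKM in KO, 151, 159, 151 and 137 in Het and 106, 97.5, 107 and 94.5 in WT libraries. The Het libraries were above all others, and Mcm6 rose by 0.56 ± 0.070 (SE, limma adjusted p = 9.07e-05) in Het against WT, while KO against WT gave 0.13 ± 0.075 (SE, limma adjusted p = 0.187). Mcm2 (chr6:88883474-88898780) had 72.6, 83.7 and 87.3 FPKM in KO, 51.0, 49.8, 58.6 and 57.1 in Het and 48.3, 67.3, 54.8 and 82.2 in WT libraries. All KO libraries exceeded all Het libraries, with a rise of 0.57 ± 0.15 (SE, limma adjusted p = 0.0107), whereas the WT libraries spanned both and KO against WT gave 0.38 ± 0.15 (SE, limma adjusted p = 0.0633).

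Mcm7 (chr5:138164589-138171862), among the most abundant members, had 132, 130.1 and 123 FPKM in KO, 122, 123, 125 and 115 in Het and 121, 130.4, 129 and 124 in WT libraries. These ranges overlapped, and no comparison passed: the interval in KO against WT was -0.094 to 0.14. Mcm4 rose in KO against Het by 0.28 ± 0.069 (SE, limma adjusted p = 0.00716) and had an interval of -0.045 to 0.26 in KO against WT. Mcm5 passed no comparison, with an interval of -0.42 to 0.0092 in KO against WT. Levels per transcript length were also set beside each other within each library, though they moved with base composition as well: in log2(FPKM + 1), Mcm2 was higher by 0.75 and Mcm4 gave -0.19 in WT 4 against WT 1. The highest subunit was 1.63 to 1.90 times the lowest in KO libraries (Mcm7 over Mcm5 in all 3), 2.40 to 3.19 times in Het libraries (Mcm6 over Mcm2 in all 4) and 1.80 to 2.50 times in WT libraries (Mcm7 over Mcm2 in 3 and over Mcm4 in WT 4). Het ratios lay above all KO ratios, and overlapped the WT ratios between 2.40 and 2.50.

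**Figure D4:**
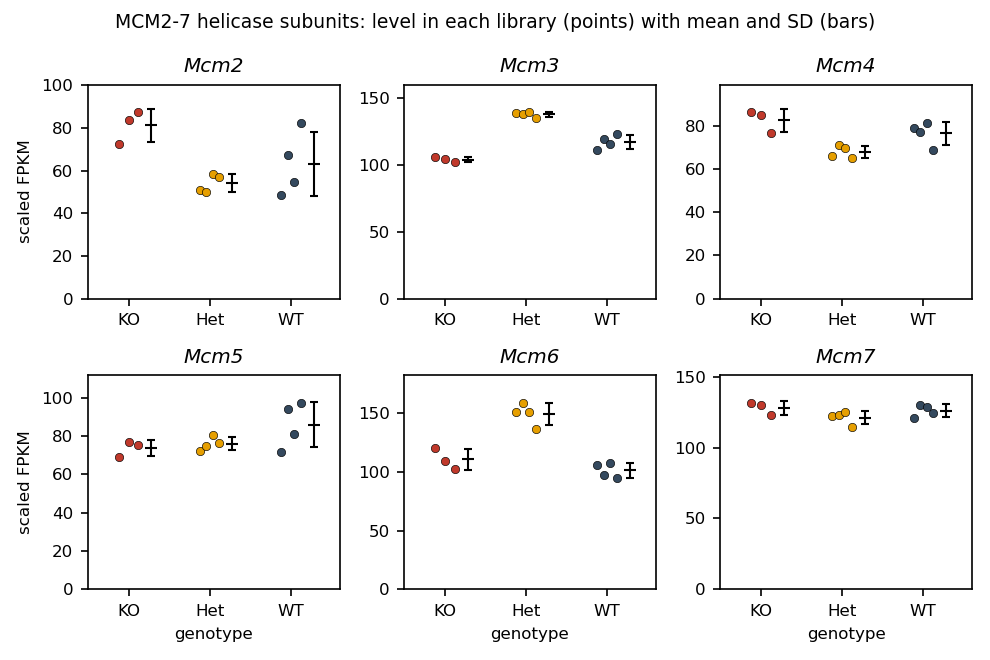
Scaled FPKM of the 6 MCM2-7 subunits in each library (points, KO then Het then WT) with the mean and SD of each genotype (bars). Mcm3 and Mcm6 were highest in the 4 Het libraries, Mcm2 was higher in KO than in Het, and Mcm7 overlapped between genotypes.

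Of the 5 helicase activation genes, 3 fell in KO against WT (60%) and none rose, against 23.7% of all genes that fell and 23.4% that rose. Gins1 (chr2:150909557-150931280), a subunit of the GINS complex, had 12.4, 13.4 and 16.5 FPKM in KO, 20.65, 25.2, 26.2 and 26.4 in Het and 21.9, 22.1, 22.6 and 22.8 in WT libraries. The KO libraries lay below all others, at 63.2% of the WT mean, and Gins1 fell by 0.64 ± 0.10 (SE, limma adjusted p = 0.000416) in KO against WT and by 0.76 ± 0.10 (SE, limma adjusted p = 0.000123) in KO against Het. Cdc45, the helicase cofactor that completes the active complex with MCM2-7 and GINS, had 34.3 to 38.7 FPKM in KO, 43.4 to 47.9 in Het and 45.3 to 49.55 in WT libraries. It fell by 0.37 ± 0.061 (SE, limma adjusted p = 0.000578) in KO against WT, and Het against WT gave -0.059 ± 0.057 (SE, limma adjusted p = 0.432). Its value is the sum over a locus on chromosome 16 and a copy on an alternate sequence. Gins3, a further GINS subunit, had 11.9 to 12.9 FPKM in KO, 11.4 to 12.3 in Het and 14.7 to 17.1 in WT libraries. It fell by 0.33 ± 0.066 (SE, limma adjusted p = 0.00187) in KO against WT and by 0.38 ± 0.061 (SE, limma adjusted p = 0.000508) in Het against WT, and the KO and Het ranges overlapped. Mcm10, which helps to start unwinding, passed 1 comparison, KO against Het, where it fell by 0.23 ± 0.060 (SE, limma adjusted p = 0.00909), and had -0.14 ± 0.060 (SE, limma adjusted p = 0.084) in KO against WT. Gins2 passed no comparison, with an interval of -0.34 to 0.35 in KO against WT.

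In the polymerase and primase group, the 2 members that fell in KO against WT (33.3%, against 23.7% of all genes) were the primase subunits. Prim2, the large primase subunit (chr1:33453808-33669794), had 46.55, 36.6 and 37.2 FPKM in KO, 75.9, 71.6, 63.0 and 59.1 in Het and 68.4, 59.1, 66.2 and 52.0 in WT libraries. All KO libraries lay below all others. Prim2 fell by 0.60 ± 0.12 (SE, limma adjusted p = 0.00197) in KO against WT and by 0.74 ± 0.12 (SE, limma adjusted p = 0.000563) in KO against Het, with Het against WT at 0.13 ± 0.11 (SE, limma adjusted p = 0.376). Prim1, the catalytic primase subunit (chr10:128015215-128030030), had 75.8, 80.3 and 72.1 FPKM in KO, 87.2, 95.1, 87.2 and 85.4 in Het and 125, 109.6, 112 and 89.3 in WT libraries. The KO libraries lay below all WT and all Het libraries, while 3 of 4 Het libraries lay below the lowest WT library. Prim1 fell by 0.50 ± 0.097 (SE, limma adjusted p = 0.00148) in KO against WT and by 0.28 ± 0.090 (SE, limma adjusted p = 0.0256) in Het against WT, the second a call lost under 9 of 21 alternatives. Its difference between KO and Het was -0.22 ± 0.097 (SE, limma adjusted p = 0.0909), which did not pass the threshold.

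The 2 subunits of polymerase alpha, to which primase is bound, did not pass in KO against WT. Pola1, its catalytic subunit, passed no comparison and had an interval of -0.37 to 0.067 in KO against WT. Pola2, its regulatory subunit, fell in Het against WT by 0.31 ± 0.095 (SE, limma adjusted p = 0.0217), a call lost under 3 of 21 alternatives, and gave -0.13 ± 0.10 (SE, limma adjusted p = 0.341) in KO against WT. Pole, the catalytic subunit of polymerase epsilon, passed none, with an interval of -0.16 to 0.17 in KO against WT. Pold1, that of polymerase delta, had 8.57, 10.4 and 15.3 FPKM in KO, 11.01, 10.0, 13.1 and 15.75 in Het and 3.55, 8.97, 4.575 and 15.6 in WT libraries. Its WT libraries alone spanned the whole KO range, so its difference of 0.59 ± 0.39 (SE, limma adjusted p = 0.234) in KO against WT could not be told from that spread.

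Of the clamp and its loader, 1 of 6 genes passed in KO against WT (16.7%), against 47.1% of all genes. Pcna, the sliding clamp and a marker of cycling cells (chr2:132249286-132253180), had 148, 159 and 160.3 FPKM in KO, 178, 179, 179 and 188 in Het and 180.4, 173, 180.1 and 184 in WT libraries. The KO libraries lay below all Het and WT libraries, at 87.0% of the WT mean. Pcna fell by 0.20 ± 0.050 (SE, limma adjusted p = 0.00647) in KO against WT, a call lost under 2 of 21 alternatives, and by 0.21 ± 0.050 (SE, limma adjusted p = 0.00471) in KO against Het. The processed copy Pcna-ps2 was listed at 56.4 to 58.9 FPKM in KO, 68.6 to 72.4 in Het and 71.0 to 79.0 in WT libraries before scaling, and how reads were divided between it and Pcna is uncertain. None of the 5 RFC genes passed any of the 3 comparisons. Their differences in KO against WT ran from -0.18 (Rfc4) to 0.072 (Rfc3), and the widest of their intervals was -0.41 to 0.048.

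Of RPA, the trimer that coats unwound single strands, 1 subunit rose and 1 fell in KO against WT (33.3% each), against 23.4% and 23.7% of all genes. Rpa3, the smallest subunit (chr6:8255936-8259141), had 59.4, 61.1 and 50.3 FPKM in KO, 40.8, 49.9, 40.2 and 39.0 in Het and 47.05, 38.8, 41.2 and 40.9 in WT libraries. All KO libraries were above all others, and it rose by 0.43 ± 0.10 (SE, limma adjusted p = 0.00511) in KO against WT. Rpa1, the large DNA-binding subunit (chr11:75300259-75348383), had 147, 136 and 135.5 FPKM in KO, 112, 114, 113.5 and 104 in Het and 135, 138, 140.4 and 134 in WT libraries. Here the Het libraries lay below all KO and all WT libraries, with a fall of 0.30 ± 0.048 (SE, limma adjusted p = 0.000546) in Het against WT and an interval of -0.088 to 0.14 in KO against WT. Rpa2, which is phosphorylated under replication stress, had 41.03 to 42.8 FPKM in KO, 48.45 to 50.35 in Het and 46.2 to 51.8 in WT libraries. It fell by 0.22 ± 0.052 (SE, limma adjusted p = 0.00543) in KO against WT, and Het against WT gave 0.013 ± 0.048 (SE, limma adjusted p = 0.857).

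The 2 members that finish Okazaki fragments departed in Het, in opposite directions. In Het against WT 1 fell and 1 rose (50% each), against 22.1% of all genes that fell and 21.7% that rose. Fen1, the flap endonuclease, had 66.1, 73.9 and 75.8 FPKM in KO, 53.1, 50.5, 54.0 and 55.6 in Het and 64.5, 78.2, 66.7 and 80.5 in WT libraries. The Het libraries lay below all others, and Fen1 fell by 0.43 ± 0.080 (SE, limma adjusted p = 0.00129) in Het against WT and rose by 0.42 ± 0.086 (SE, limma adjusted p = 0.00208) in KO against Het. Lig1, the ligase that seals the fragments, had 35.4, 32.5 and 35.2 FPKM in KO, 41.8, 43.9, 46.05 and 42.75 in Het and 29.8, 33.7, 33.2 and 36.55 in WT libraries. The Het libraries lay above all others, and Lig1 rose by 0.38 ± 0.065 (SE, limma adjusted p = 0.000753) in Het against WT and fell by 0.34 ± 0.070 (SE, limma adjusted p = 0.00248) in KO against Het. In KO against WT the intervals were -0.20 to 0.18 for Fen1 and -0.11 to 0.20 for Lig1.

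Of the nucleotide supply genes, Rrm2, the cell cycle-regulated subunit of ribonucleotide reductase (chr12:24708254-24714146), had 116, 114 and 112 FPKM in KO, 107, 115, 108 and 105 in Het and 139.8, 121, 141 and 122 in WT libraries. KO and Het libraries lay below all WT libraries and overlapped each other. Rrm2 fell by 0.20 ± 0.067 (SE, limma adjusted p = 0.032) in KO against WT, a call lost under 7 of 21 alternatives, and by 0.27 ± 0.062 (SE, limma adjusted p = 0.005) in Het against WT. Rrm1, the large subunit, passed no comparison, with an interval of -0.35 to 0.049 in KO against WT. Tyms, which makes thymidylate, fell by 0.25 ± 0.061 (SE, limma adjusted p = 0.00641) in Het against WT and had an interval of -0.099 to 0.19 in KO against WT; its processed copy Tyms-ps was listed at 5.74 to 7.77 FPKM over the 11 libraries. Tk1, the thymidine salvage kinase of S phase, had 101 to 123 FPKM in KO, 129 to 144 in Het and 66.6 to 111.5 in WT libraries. Tk1 rose by 0.57 ± 0.14 (SE, limma adjusted p = 0.00652) in Het against WT, and KO against WT gave 0.29 ± 0.15 (SE, limma adjusted p = 0.139).

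Of the 3 E2F factors, 1 fell in KO against WT (33.3%) and none rose, against 23.7% of all genes that fell and 23.4% that rose. E2f2, an activator, had 1.91 to 2.35 FPKM in KO, 2.07 to 3.10 in Het and 2.95 to 3.77 in WT libraries. It fell by 0.44 ± 0.11 (SE, limma adjusted p = 0.00705) in KO against WT and by 0.30 ± 0.10 (SE, limma adjusted p = 0.0359) in Het against WT, the second a call lost under 8 of 21 alternatives. E2f1, also an activator, fell in KO against Het by 0.39 ± 0.13 (SE, limma adjusted p = 0.0298), likewise lost under 8, and gave -0.18 ± 0.13 (SE, limma adjusted p = 0.276) in KO against WT. E2f8, an atypical member that represses transcription, had 7.35, 7.11 and 7.77 FPKM in KO, 10.7, 10.9, 12.0 and 9.81 in Het and 7.515, 7.76, 7.99 and 8.58 in WT libraries. The Het libraries lay above all others: E2f8 rose by 0.40 ± 0.070 (SE, limma adjusted p = 0.000851) in Het against WT and fell by 0.49 ± 0.075 (SE, limma adjusted p = 0.000318) in KO against Het, with an interval of -0.26 to 0.076 in KO against WT.

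Het did not lie midway between KO and WT for many members. Set against the midpoint of the KO and WT means, 23 of 41 departed at a limma adjusted p under 0.05, against 44.1% of all genes, with 13 above it (31.7%) and 10 below it (24.4%), against 21.3% and 22.7% of all genes. Farthest above were Mcm6, by 0.49 ± 0.062 (SE, limma adjusted p = 9.39e-05), E2f8, by 0.45 ± 0.062 (SE, limma adjusted p = 0.000182), and Gins1, by 0.45 ± 0.084 (SE, limma adjusted p = 0.00143). Farthest below were Fen1, at -0.43 ± 0.071 (SE, limma adjusted p = 0.000618), and Mcm2, at -0.38 ± 0.13 (SE, limma adjusted p = 0.0304). By group means, the order was Het over WT over KO in 12 members, WT over Het over KO in 9, KO over WT over Het in 9, WT over KO over Het in 6, Het over KO over WT in 4 and KO over Het over WT in 1. Several of these orders rest on differences smaller than the spread between libraries, as for Mcm7 and the RFC genes. The same orders over all genes are not given here, so these counts describe the members only.

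The other genes of the pathway were read from 5 further lists, in KO against WT, where 23.7% of all genes fell and 23.4% rose with a median difference of 0.010. Of 33 origin and fork factors outside the members, 16 fell (48.5%) and 4 rose (12.1%), with a median difference of -0.21. Rnaseh2b, a subunit of the ribonuclease that removes ribonucleotides from DNA, averaged 14.4 ± 0.474 FPKM in KO, 28.0 ± 0.713 in Het and 29.3 ± 3.815 in WT libraries. Mcm8, a helicase of homologous recombination, averaged 5.12 ± 0.738 FPKM in KO, 7.055 ± 0.6247 in Het and 9.02 ± 1.165 in WT libraries. Wdhd1, which ties polymerase alpha to the helicase, averaged 19.4 ± 1.92 FPKM in KO, 29.5 ± 4.42 in Het and 31.1 ± 4.11 in WT libraries. Rnaseh2a, of the same enzyme as Rnaseh2b, fell as much as Wdhd1, by 0.65. The first 3 fell by 0.97, 0.71 and 0.65 on the log2 scale (limma adjusted p = 7.01e-06, 0.000404 and 0.00174). The origin kinase Cdc7 and its activator Dbf4 rose, by 0.24 and 0.35; they were picked after their values were seen. In Het against WT, where 22.1% of all genes fell and 21.7% rose, 8 of the list fell (24.2%) and 3 rose (9.09%).

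Of 27 chromatin and repair factors that act at forks, 14 fell (51.9%) and 2 rose (7.41%), with a median of -0.30. Asf1b, a histone chaperone of S phase, averaged 37.8 ± 1.24 FPKM in KO, 52.5 ± 2.45 in Het and 72.8 ± 1.87 in WT libraries. Supt16, a subunit of the FACT chaperone, averaged 42.9 ± 2.39 FPKM in KO, 55.4 ± 3.17 in Het and 69.4 ± 7.58 in WT libraries. Asf1b fell by 0.93 ± 0.052 (SE, limma adjusted p = 1.8e-07) and Supt16 by 0.68 ± 0.086 (SE, limma adjusted p = 7.78e-05). Of this list, 9 fell (33.3%) and 3 rose (11.1%) in Het against WT. Of 24 nucleotide synthesis genes, 7 fell (29.2%) and 5 rose (20.8%), with a median of -0.025. Samhd1, which degrades deoxynucleotides, averaged 31.3 ± 3.70 FPKM in KO, 53.1 ± 2.94 in Het and 70.5 ± 3.61 in WT libraries, and fell by 1.15 ± 0.081 (SE, limma adjusted p = 8.71e-07). Dut, which keeps uracil out of DNA by breaking down dUTP, averaged 19.5 ± 1.06 FPKM in KO, 28.3 ± 1.88 in Het and 32.7 ± 4.315 in WT libraries, and fell by 0.71 ± 0.098 (SE, limma adjusted p = 0.000146). Of the 24, 8 fell (33.3%) and 3 rose (12.5%) in Het against WT.

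Of 15 other E2F and Rb family genes, 5 fell (33.3%) and 2 rose (13.3%), with a median of -0.037. The repressor E2f6 averaged 16.7 ± 0.929 FPKM in KO, 10.5 ± 0.650 in Het and 9.81 ± 1.04 in WT libraries, and rose by 0.72 ± 0.083 (SE, limma adjusted p = 4.16e-05). Of the E2F partners, Tfdp1 rose by 0.46 ± 0.060 (SE, limma adjusted p = 9.77e-05) and Tfdp2 fell by 0.52 ± 0.079 (SE, limma adjusted p = 0.000303). Of the 15, 3 fell and 3 rose in Het against WT (20% each). Of 21 regulators of the G1 to S step, 8 rose (38.1%) and 7 fell (33.3%), with a median of 0.047. Cdkn1a (p21), an inhibitor of cyclin-dependent kinases, had 50.5, 53.25 and 50.1 FPKM in KO, 27.7, 29.2, 28.3 and 30.0 in Het and 6.86, 6.28, 5.47 and 7.04 in WT libraries. The genotypes did not overlap, and Cdkn1a rose by 2.82 ± 0.076 (SE, limma adjusted p = 5.61e-10) in KO against WT and by 2.01 ± 0.071 (SE, limma adjusted p = 7.76e-09) in Het against WT. Ccne1 (cyclin E1), which drives entry into S phase, had 19.9, 17.7 and 17.65 FPKM in KO, 30.1, 34.7, 27.6 and 28.2 in Het and 7.47, 7.01, 6.96 and 6.72 in WT libraries. It rose by 1.27 ± 0.083 (SE, limma adjusted p = 5.08e-07) in KO against WT, and its Het libraries were above all others. Cdkn1c (p57), another inhibitor, had 0, 0 and 0.0594 FPKM in KO, 5.50, 5.49, 6.98 and 6.155 in Het and 1.04, 0.808, 0.931 and 1.30 in WT libraries; it fell in KO against WT by 0.98 ± 0.11 (SE, limma adjusted p = 2.27e-05) and rose in Het against WT by 1.80 ± 0.097 (SE, limma adjusted p = 1.95e-07). Of the 21, 5 rose and 5 fell in Het against WT (23.8% each).

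Libraries of a genotype differed among themselves in step with the base composition of the transcripts. Over the 41 members, the difference between KO 4 and KO 1 in log2(FPKM + 1) had r = 0.619 and rho = 0.602 with the GC content of the longest transcript, that between Het 4 and Het 1 had r = 0.453 and rho = 0.332, and that between WT 4 and WT 1 had r = 0.744 and rho = 0.811; these describe genes measured in the same pairs of libraries. Pold1, with the highest GC content of the members at 61.0%, was higher by 0.77 in KO 4 than in KO 1, by 0.48 in Het 4 than in Het 1 and by 1.87 in WT 4 than in WT 1. Rpa3, with the lowest at 34.2%, gave -0.24 for KO 4 against KO 1, -0.063 for Het 4 against Het 1 and -0.20 for WT 4 against WT 1. Over all genes with a GC value, the 3328 with the highest GC (54.25% or more) had a median deviation from the group mean of 0.12 in KO 4 and -0.11 in KO 1, of 0.084 in Het 4 and -0.043 in Het 1, and of 0.30 in WT 4 and -0.28 in WT 1. Removing a smooth GC trend from each library was an alternative chosen after the data had been seen. Of all 14937 genes it gave 8191 calls in KO against WT, 7896 in Het against WT and 8003 in KO against Het, in place of 7035, 6542 and 6601. The members that fell and rose then numbered 14 and 5 in KO against WT, 10 and 8 in Het against WT and 15 and 9 in KO against Het. Mcm5 (-0.24, limma adjusted p = 0.0182) and E2f1 (-0.37, limma adjusted p = 0.00248) then fell in KO against WT, and Mcm2, Mcm4 and Mcm6 rose by 0.35, 0.18 and 0.18, while Pcna no longer passed (-0.13, limma adjusted p = 0.138). The falls of Gmnn, Gins1, Prim1, Prim2 and Cdc6 and the rises of Orc1 and Rpa3 in KO against WT passed both ways.

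**Figure D5:**
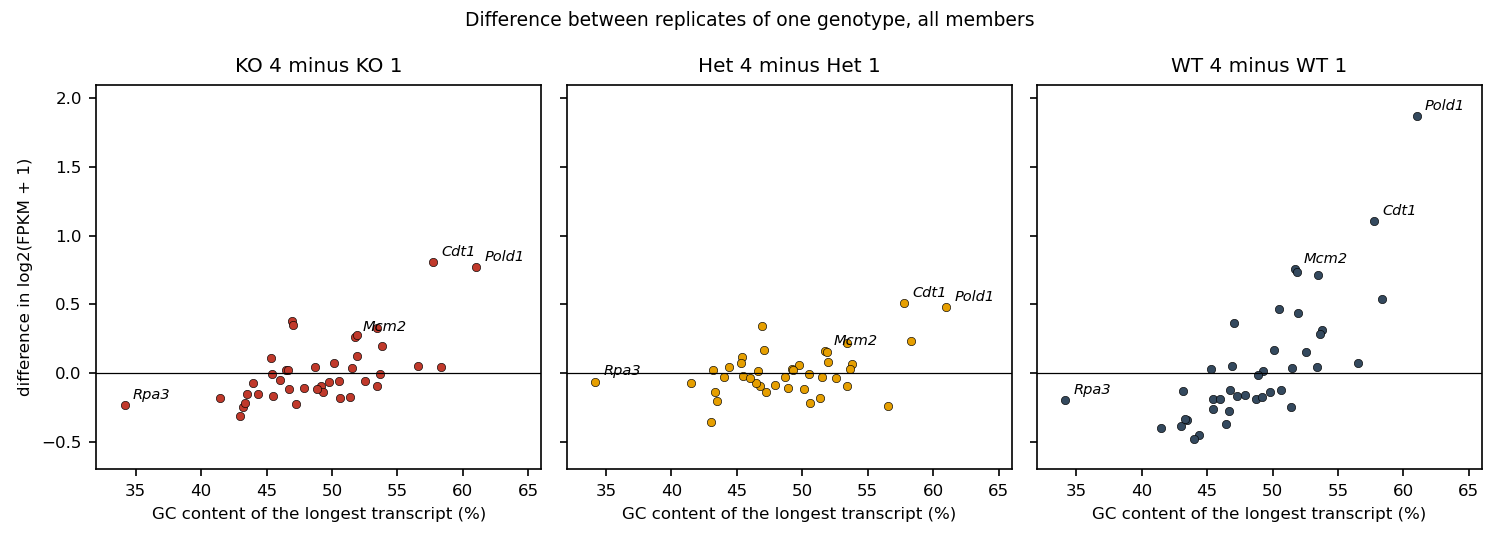
Difference in log2(FPKM + 1) between KO 4 and KO 1 (left), Het 4 and Het 1 (middle) and WT 4 and WT 1 (right) against the GC content of the longest transcript, with 1 point for each of the 41 members. Pold1 and Cdt1, of high GC content, were higher in library 4 of each genotype; r with GC was 0.619 in KO, 0.453 in Het and 0.744 in WT.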

How the data were processed

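Gene FPKM (fragments scaled to transcript length and to mapped fragments) were deposited by the authors, 1 table per library with 48892 loci. They were made with TopHat2 2.1.0 and Cufflinks 2.2.1 on GRCm38.p4, and Cuffdiff is named without a version, per the submitters' processing notes. The tables hold no read counts, so no count model was used. From them, FPKM were summed by symbol (1766 symbols had several loci), at most 7 loci in a library with a failed estimate and up to 31 names that a library's table had altered were handled by locus, and libraries were scaled to each other by median ratios of 13718 genes, with factors of 0.941 to 1.04. All printed levels are scaled FPKM unless said. Symbols with at least 1 FPKM in at least 3 libraries were kept (14937). The test was limma 3.58.1 (R 4.3.3) on log2(FPKM + 1), with a mean for each genotype, a mean-variance trend and a spread shared by the 11 libraries. The pseudocount of 1 understates differences of low genes. Benjamini-Hochberg adjustment covered every gene tested, the threshold was an adjusted p of 0.05, and intervals cover 95%. The fit was also run on simulated data with independent noise in each gene and library, and the outcome is not reported here. Such data do not hold the shifts with GC content that genes of a library shared, so the run cannot show error rates under them. The 41 members and the further lists were chosen with earlier results of these data known, so the patterns are not independent of those results. Values in every library were given for members past the threshold in KO against WT or KO against Het by at least 0.5 in log2, for the 6 most abundant members and for those that rose in KO against WT, and for Fen1, Lig1, Pold1 and E2f8, which were added after their values had been seen. From each further list up to 3 genes with the largest change in KO against WT were named, and some of the genes so chosen are not reported here. Alternatives were another pseudocount (0.1), no filter, no scaling, upper-quartile scaling, no trend, primary loci only, a replicate block, a fit of only the 2 groups compared and each library left out; leaving out KO 1 and WT 3 together and removing a GC trend (loess, span 0.3) were added later. Promoters came from RefSeq.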

Additional observations from a re-analysis of the deposited data

Results flagged for a closer look

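In 4 of the 82 Het and WT groups of 4 libraries, 1 library stood apart from the other 3 by more than Dixon's 95% limit, where chance gives about 1 in 20. All 4 were in Het: Cdc45 in Het 2 at 47.88 FPKM against 43.4 to 44.1 in the others, Pcna in Het 4 at 187.7 against 178 to 179, Rpa1 in Het 4 at 104.3 against 112 to 114, and Rpa3 in Het 2 at 49.87 against 39.0 to 40.8. The share is about that of chance, and KO groups of 3 were not tested.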

How the results depend on the processing

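No called difference of a member changed sign under an alternative. Of 123 differences over the 3 comparisons, 24 changed sign under at least 1, all of them below the threshold, such as Cdt1 in KO against WT (-0.086 to 0.39). Without scaling between libraries, the members that fell in KO against WT numbered 20 in place of 13, and the share of all calls that were higher was 37.1% against 49.6% in KO against WT and 36.5% against 49.9% in KO against Het. With the GC trend removed, the members that rose numbered 5 in place of 2 in KO against WT and 8 in place of 5 in Het against WT. Genes called in all then numbered 8191 in place of 7035 and 7896 in place of 6542. With 1 library left out in turn, the members that rose in KO against WT numbered 2 to 5 and those that fell 10 to 18. Both the 5 and the 18 came without WT 4. Genes called in all ran from 5790 to 7907, the highest count also coming without WT 4. Leaving out KO 1 and WT 3, the shallowest libraries, left 9 that fell and 2 that rose, with 5467 of 14677 genes called in all. In Het against WT those that fell numbered 7 to 11 with 1 library left out, and in KO against Het 12 to 14. Genes called in all ran from 5679 to 7304 and from 5476 to 7281 there. Calls were lost under at least 1 of 21 alternatives for Orc2 (14), Rrm2 (7), Mcm3 (3) and Pcna (2) in KO against WT, for Orc6 (12), Prim1 (9), E2f2 (8) and Pola2 (3) in Het against WT, and for E2f1 (8) and Tyms (1) in KO against Het. The cause of these shifts was not tested.

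Same-numbered libraries correlated above 0.1 in their deviations in 5 of 10 pairs (-0.101 to 0.353), against 5 of 30 differently numbered pairs (-0.399 to 0.18). The 3 pairs of libraries numbered 4 had 0.254 to 0.353. KO 1 and WT 1 had 0.333, and library 4 was shifted against library 1 in step with GC content in all 3 genotypes. Not every pair passed 0.1 and the labels give no shared source, so the main fit did not pair samples by number. Whether same-numbered libraries share a source was not tested. With a replicate block, members that rose and fell numbered 3 and 12 in KO against WT, 6 and 11 in Het against WT and 7 and 13 in KO against Het, and genes called in all 7283, 6988 and 6877. Under the block, Mcm2 passed in KO against WT (limma adjusted p = 0.0366) and Mcm4, Pold1 and Pole in Het against WT (limma adjusted p = 0.0212, 0.0418 and 0.046), while Orc2 in KO against WT and Orc6 in Het against WT did not (limma adjusted p = 0.0612 and 0.0665). The tables hold no counts, so the depth of single values is limited to the relative values given. The comparison with the midpoint needs all 3 groups and has no value when only 2 are fitted.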
